A study of Mus musculus with 16 samples.

Results

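The nuclear genes of oxidative phosphorylation were followed in bulk RNA-seq of whole mouse pancreas. Members were the rows of the raw count table whose symbol begins with Nduf, Sdha, Sdhb, Sdhc, Sdhd, Uqcr, Cox4, Cox5, Cox6, Cox7, Cox8 or Atp5, with pseudogenes left out. The rule took 96 of 24411 symbols, and 89 of the 96 passed a filter on low counts that kept 13660 symbols in all. By role, the 89 comprised 35 subunits of complex I, 4 of complex II, 8 of complex III, 13 of complex IV, 15 of complex V, 11 assembly factors (Ndufaf and Sdhaf genes) and 3 genes that share the symbols but are no subunit of the enzymes (Atp5s, Atp5sl and Cox7a2l).

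Oxidative phosphorylation is carried out by protein complexes of the inner mitochondrial membrane. Complexes I and II pass electrons from NADH and succinate to ubiquinone, complex III passes them on to cytochrome c, and complex IV reduces oxygen, while complexes I, III and IV pump protons that drive ATP synthesis by complex V. Most subunits are encoded in the nucleus and a few in the mitochondrial genome, whose transcripts have no symbol among those deposited. In the pancreas the pathway supplies ATP for enzyme synthesis in acinar cells, and in β cells it couples glucose metabolism to insulin secretion.

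The conditions compared were all in male C57BL6/J mice of 12 weeks, 1 library per mouse. WT mice (n = 5, 3 in batch A and 2 in batch B) and leptin-deficient Lep(ob/ob) mice (n = 7, 4 in batch A and 3 in batch B) drank control water. Treated Lep(ob/ob) mice (n = 4, all in batch B) received a CCK receptor antagonist in their water, 0.1 mg/ml proglumide (mice 69 and 72) or 0.05 mg/ml lorglumide (mice 74 and 76) for the last 6 weeks. Lep(ob/ob) mice lack leptin in every tissue from birth. The ob allele still gives a transcript, so Lep counts do not check the genotype. Body weight separated the genotypes, at 27.7 ± 3.22 g in WT mice and 51 ± 1.98 g in untreated Lep(ob/ob) mice (mean ± SD). The sources differ on the origin of WT mice, which the labels describe as bred in house and the study's methods as bought from the supplier of the Lep(ob/ob) mice, so a part of origin in the comparison of genotypes was not tested.

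Library totals ranged from 9.87 to 34.5 M counts. The 50 most counted genes took 79.2 to 85% of them in mice of batch A and from 49.3 to 77.1% in those of batch B, and the 89 members took 0.206 to 0.638%. All 12 acinar markers were detected in every mouse. Summed over them, TMM-scaled CPM in batch A were 744000 to 817000 for WT and 482000 to 750000 for untreated Lep(ob/ob) mice. In batch B they were 384000 and 214000 for WT mice, 455000, 189000 and 316000 for untreated and 108000 to 316000 for treated Lep(ob/ob) mice, which overlapped. CPM are counts per M counts in the scaled library, TMM is the trimmed mean of M values, and log2 CPM have a prior count of 2. In bulk pancreas, fewer cells of a type and less RNA per cell cannot be told apart.

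RefSeq promoters of the GRCm38.p6 build, from 250 bases before to 50 bases after the start of a gene, were at hand for 76 of the 89 members. The NRF1 motif (GCGCA and GCGC with any base between them) was found in 20 of them, or 26.3%, against 10.9% of tested genes with a promoter and 4.6% of all 32851 promoters. The first 2 shares count a gene once if any of its promoters matched, and the last counts single promoters. The GABP motif (CCGGAAG) was also in 20 (26.3%, 18.9% and 8.86% in the same order), the ESRR motif (AAGGTCA) in 7 (9.21%, 3.97% and 4.72%) and the YY1 motif (AAGATGGCG) in 8 (10.5%, 3.36% and 1.4%). Both strands were searched, and the motifs were counted separately where they overlapped. At least 1 of the 4 motifs was in promoters of 42 members (55.3%, 32.4% and 17.8%). A match is a run of letters and not a site shown to be bound. Matches before the RefSeq start site are shown in 30 bases for the members on which the results below turn, 5′ to 3′ on the strand of the gene, with the motif or its reverse complement in capitals. Start sites differ between annotations. By the gene spans of GENCODE vM21, some windows lie inside the gene in whole or in part. These are the windows of Ndufb7 and Atp5k, the last 2 NRF1 windows of Ndufb4 and of Sdha, and the ESRR window of Ndufb4. The spans are chr16:37647170-37654453 for Ndufb4 and chr13:74322254-74350280 for Sdha, and those of called members are given below. Atp5k and Ndufb7 were called lower in Lep(ob/ob) pancreas. Ndufb4 and Atp5e had the steepest fold changes of their complexes but did not pass the test, and neither did Sdha, with 3 matches.
Atp5k, NRF1, chr5:108434430-108434459 (minus strand): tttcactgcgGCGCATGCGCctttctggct
Ndufb7, GABP, chr8:83566727-83566756 (plus strand): gcctagatgacCCGGAAGacactgaagggg
Ndufb4, NRF1, chr16:37654540-37654569 (minus strand): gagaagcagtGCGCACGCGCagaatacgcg
Ndufb4, NRF1, chr16:37654428-37654457 (minus strand): ccttgtgcgcGCGCAGGCGCacttcctgag
Ndufb4, NRF1, chr16:37654371-37654400 (minus strand): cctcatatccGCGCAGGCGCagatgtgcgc
Ndufb4, ESRR, chr16:37654405-37654434 (minus strand): tcctgagcctgAAGGTCAgactcgagaggg
Atp5e, GABP, chr2:174464185-174464214 (minus strand): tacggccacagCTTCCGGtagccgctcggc
Sdha, NRF1, chr13:74350319-74350348 (minus strand): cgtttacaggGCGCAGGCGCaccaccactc
Sdha, NRF1, chr13:74350276-74350305 (minus strand): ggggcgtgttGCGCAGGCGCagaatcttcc
Sdha, NRF1, chr13:74350231-74350260 (minus strand): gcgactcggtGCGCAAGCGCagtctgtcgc
Of the 7 members called below, 6 had a promoter at hand, and 3 of these held a motif. Atp5k also held a GABP and an ESRR match after the start site and Ndufc1 a YY1 match there, whereas Ndufa3, Atp5g1 and Cox7a2 had none of these letters in the window.

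Per kb of the principal transcript (GENCODE vM21), levels differed widely between subunits of the same complex. Mean levels over all mice, batches pooled, were highest for Ndufb9 in complex I (124 CPM per kb), Sdhb in complex II (36.3), Uqcrh in complex III (190.0), Cox4i1 in complex IV (169) and Atp5e in complex V (163). The order was not the same in every condition, since Atp5b was above Atp5e in untreated Lep(ob/ob) mice (143 and 109 CPM per kb) and Sdhd above Sdhb in treated mice (27.2 and 25.5). Assembly factors were low, between 0.577 (Sdhaf3) and 5.63 CPM per kb (Sdhaf4).

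The first comparison asked how obesity from leptin deficiency goes with the level of these genes. In Lep(ob/ob) pancreas 7 members were lower than in WT and 0 were higher (edgeR quasi-likelihood test with batch as a covariate, Benjamini-Hochberg adjusted p under 0.05 over 13660 genes). Over all genes 8.94% were called, 3.12% as lower and 5.82% as higher. The 7 were the complex V subunits Atp5k and Atp5g1, the complex I subunits Ndufc1, Ndufb7 and Ndufa3, the complex III subunit Uqcrb and the complex IV subunit Cox7a2. Log2 fold changes of the 7 lay between −0.70 and −0.49. The count rests on single mice, since it was 0 without WT mouse 59 and 16 without Lep(ob/ob) mouse 464, and it was 1 without the batch covariate. With each mouse left out in turn, Atp5k and Ndufc1 were called in 15 of 16 fits, Atp5g1 in 13, Ndufa3 in 8, Ndufb7 and Uqcrb in 7 and Cox7a2 in 4. DESeq2 on the same counts called 10 lower, against 4.61% of all genes, and 0 higher. No member with a positive fold change had an unadjusted p under 0.05.

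Most of the other members had small negative values that did not pass. The log2 fold change was below 0 in 80 of 89 members, against 52.3% of all genes, with a median of −0.33 against −0.02, and the unadjusted p was under 0.05 in 47 of the 89, against 23.7% of all genes. The median was −0.33 in complex I (32 of 35 below 0), −0.37 in complex III (7 of 8), −0.35 in complex IV (11 of 13), −0.39 in complex V (14 of 15) and −0.27 in the assembly factors (11 of 11). Complex II, which also belongs to the tricarboxylic acid cycle, had a median of 0.03, with 2 of 4 below 0. With library totals in place of TMM, the median of all genes moved to 0.15 and that of the members to −0.18, which left the members 0.33 below all genes, and 0 members were then called.

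**Figure D1:**
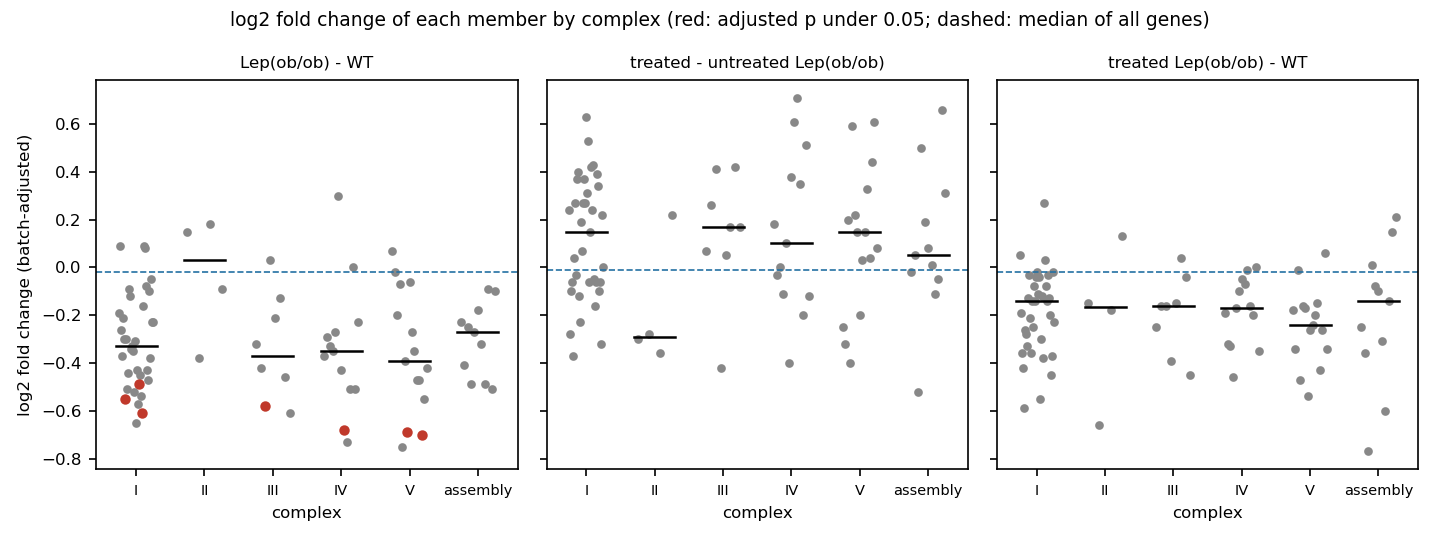
Log2 fold change of each member (points, 1 per gene) in the 3 comparisons, with batch as a covariate, by complex or role, black bars being the median of a complex, red points members with an adjusted p under 0.05 and the dashed line the median of all 13660 genes. In Lep(ob/ob) against WT the 7 red points lie between −0.70 and −0.49, and complex II has a median of 0.03 where the other complexes lie between −0.39 and −0.33.

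Levels by mouse showed how far these differences reached into each batch. In batch A the mean log2 CPM of the 89 members was 4.47 to 4.64 in 3 WT mice and 4.16 to 4.49 in 4 Lep(ob/ob) mice. In batch B it was 4.86 and 4.89 in WT mice, and 4.33, 4.16 and 4.73 in Lep(ob/ob) mice 461, 463 and 464. Thus Lep(ob/ob) and WT mice overlapped in batch A by a single mouse, and in batch B mouse 464 lay close to WT while mice 461 and 463 lay well below. In 20 of 89 members every Lep(ob/ob) mouse was below every WT mouse of its batch in both batches, against 3.7% of all genes, and in 0 members every one was above (4.97% of all genes). Counted by batch, such a separation downward was seen in 28 members in batch A (10.3% of all genes) and 44 in batch B (15.7%).

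**Figure D2:**
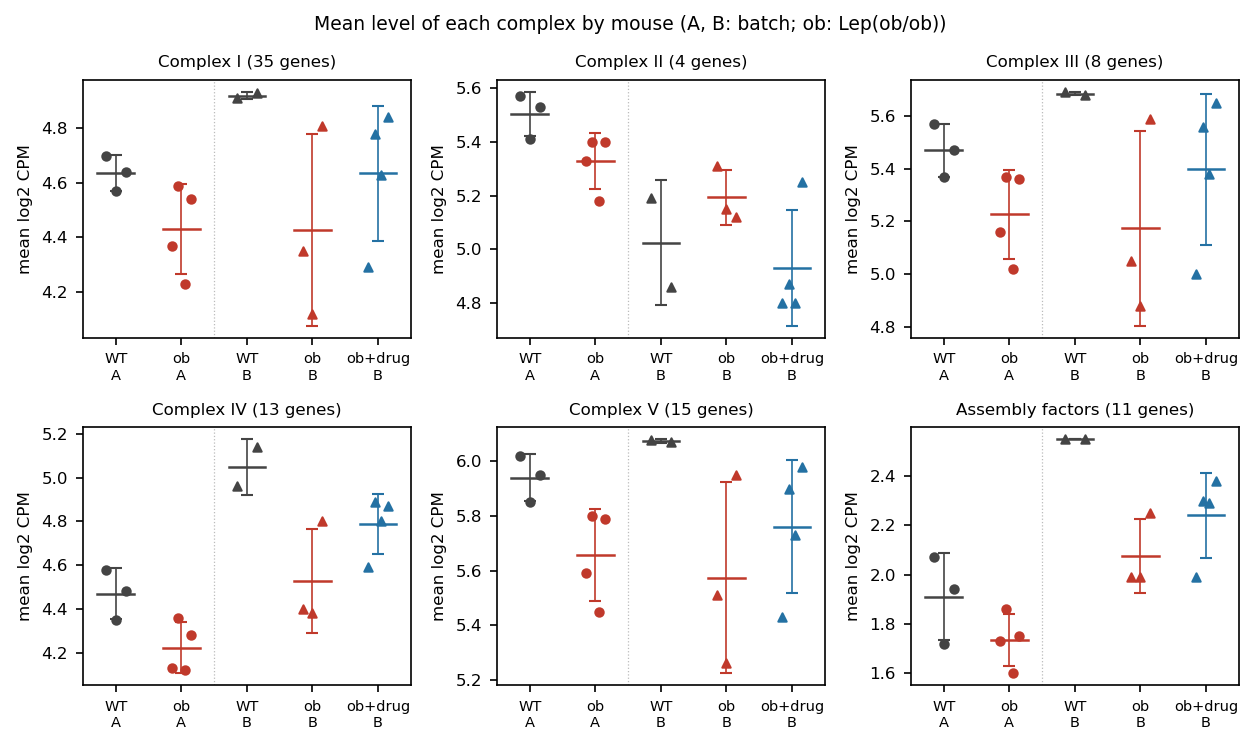
Mean log2 CPM over the members of each complex (y axis, each panel with its own range) in every mouse, by condition and batch, circles for batch A and triangles for batch B, bars giving mean ± SD of the mice. In complex V, for example, both WT mice of batch B are at 6.07 and 6.08, Lep(ob/ob) mice at 5.51, 5.26 and 5.95, and antagonist-treated mice between 5.43 and 5.98.

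In complex V 2 of 15 members were called. Atp5k encodes subunit e, a small membrane subunit where ATP synthase dimers form (chr5:108433244-108434448, minus strand). In batch A it was at 18.6, 20.5 and 22.4 CPM in WT and 13.7, 13.7, 16.1 and 17.8 CPM in Lep(ob/ob) mice. In batch B it was at 40.4 and 51.7 CPM in WT and 17.2, 18.8 and 29.8 CPM in Lep(ob/ob) mice. The genotypes did not overlap in either batch, although batch B was higher as a whole (log2 fold change 0.79, adjusted p = 0.00197). The fitted log2 fold change between genotypes was −0.70 ± 0.17 (SE, adjusted p = 0.0135).

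Atp5g1 is 1 of 3 genes for subunit c of the proton-conducting ring (chr11:96068852-96075670, minus strand). In batch A it was at 49.7, 50.3 and 61.4 CPM in WT and 28.6, 32.9, 37.7 and 42 CPM in Lep(ob/ob) mice, and in batch B at 25.9 and 31.1 against 9.38, 18.4 and 21.5 CPM. All Lep(ob/ob) mice were below all WT mice of their batch (log2 fold change −0.69 ± 0.18, adjusted p = 0.0226). The other subunit c genes, Atp5g3 and Atp5g2, which encode the same mature protein, had log2 fold changes of −0.27 ± 0.11 (adjusted p = 0.139) and −0.06 ± 0.16 (adjusted p = 0.858). In the transcripts of Atp5g1, 11.1% of 50-base stretches occur in transcripts of other genes, and in those of Atp5g2 38.3%, so their counts are uncertain where reads could be split.

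Of the remaining complex V subunits, Atp5e, the ε subunit of the central stalk, had the largest negative value, −0.75 ± 0.26 (adjusted p = 0.0887). It was at 50.3 to 53.3 CPM in WT and 35.5 to 49.5 CPM in Lep(ob/ob) mice in batch A, and at 102 and 154 against 31.1, 31 and 89.9 CPM in batch B. The catalytic subunits had small values that did not pass, with Atp5a1 at 0.07 ± 0.15 (adjusted p = 0.828) and Atp5b at −0.02 ± 0.17 (adjusted p = 0.96).

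In complex I the 3 called members are accessory subunits, which surround the catalytic core. Ndufc1 (chr3:51404677-51408988, minus strand) was at 11.6, 12 and 12.4 CPM in WT and 8.18, 8.47, 10.1 and 10.6 CPM in Lep(ob/ob) mice in batch A. In batch B it was at 17.4 and 21.5 against 7.86, 10.7 and 11.5 CPM. No Lep(ob/ob) mouse reached a WT mouse of its batch, and the log2 fold change was −0.61 ± 0.15 (adjusted p = 0.014).

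Ndufb7 (chr8:83566671-83571626, plus strand) was at 22.9, 23.9 and 26.8 CPM in WT and 15.6, 18.7, 20.2 and 22.1 CPM in Lep(ob/ob) mice in batch A, and at 21.5 and 22.4 against 11.2, 13.3 and 16.8 CPM in batch B. Its levels again did not overlap within a batch (log2 fold change −0.49 ± 0.14, adjusted p = 0.032). Ndufa3 (chr7:3617373-3620327, plus strand) was at 17.7, 19.1 and 23.2 CPM in WT and 13.7, 13.9, 18.1 and 18.7 CPM in Lep(ob/ob) mice in batch A, where the genotypes overlapped, and at 29.4 and 32.1 against 13.7, 14.7 and 21.8 CPM in batch B. Its log2 fold change was −0.55 ± 0.16 (adjusted p = 0.0352).

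Nuclear core subunits, which carry the flavin and iron-sulfur clusters and the ubiquinone pocket, did not pass the test where reported here. Log2 fold changes were −0.38 ± 0.14 for Ndufs8, −0.23 ± 0.15 for Ndufv2, −0.10 ± 0.16 for Ndufs7, −0.08 ± 0.10 for Ndufs3, −0.05 ± 0.11 for Ndufv1 and 0.09 ± 0.11 for Ndufs1, with adjusted p between 0.0987 (Ndufs8) and 0.815 (Ndufv1). The accessory subunit Ndufb4 had the largest negative value in complex I, −0.65 ± 0.25 (adjusted p = 0.114). Its level was 7.22 to 7.96 CPM in WT and 5.56 to 7.74 CPM in Lep(ob/ob) mice in batch A, and 25.1 and 32.7 against 8.95, 7.78 and 19 CPM in batch B, so that the genotypes overlapped in batch A and were apart in batch B. Ndufa10, at 0.09 ± 0.16 (adjusted p = 0.773), had the highest value in the complex.

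In complex II, Sdha, the flavoprotein that oxidises succinate, was at 68.6 to 79.8 CPM in WT and 66.4 to 72.6 CPM in Lep(ob/ob) mice in batch A. In batch B it was at 48.7 and 43.4 CPM in WT and 73.7, 80.5 and 48.4 CPM in Lep(ob/ob) mice 461, 463 and 464. Mice 461 and 463 were thus above WT for Sdha and below WT for the 7 called members, and mouse 464 was level with WT for Sdha. The log2 fold changes were 0.15 ± 0.15 for Sdha, 0.18 ± 0.14 for the membrane anchor Sdhc, −0.09 ± 0.12 for the anchor Sdhd and −0.38 ± 0.15 for the iron-sulfur subunit Sdhb, with adjusted p of 0.58, 0.48, 0.719 and 0.129.

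In complex III, Uqcrb, a small subunit near the ubiquinone site (chr13:66900617-66905378, minus strand), was at 25.7, 28.1 and 32.7 CPM in WT and 17.3, 22, 23.5 and 24.5 CPM in Lep(ob/ob) mice in batch A. In batch B it was at 65.2 and 78.2 against 33.3, 33.6 and 55.8 CPM. The genotypes were apart within each batch (log2 fold change −0.58 ± 0.16, adjusted p = 0.0364), with the reservation that 25.5% of 50-base stretches in its transcripts occur in those of 5 other genes. Uqcrq had the largest negative value of the complex (−0.61 ± 0.19, adjusted p = 0.0587) and the core protein Uqcrc1 the highest (0.03 ± 0.13, adjusted p = 0.921).

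In complex IV, Cox7a2, a small subunit with a muscle counterpart (chr9:79755361-79759878, minus strand), was at 38.2, 38.3 and 41.2 CPM in WT and 25.7, 28.9, 28.9 and 34.6 CPM in Lep(ob/ob) mice in batch A. In batch B it was at 71.6 and 117 against 32.5, 33.4 and 70.5 CPM. Here mouse 464 was just below the lower WT mouse, and the log2 fold change was −0.68 ± 0.20 (adjusted p = 0.0418). Cox7b was lowest in the complex by fold change (−0.73 ± 0.27, adjusted p = 0.103), and Cox6b2, a testis isoform counted at under 1 CPM in every mouse, was highest (0.30 ± 0.47, adjusted p = 0.75).

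**Figure D3:**
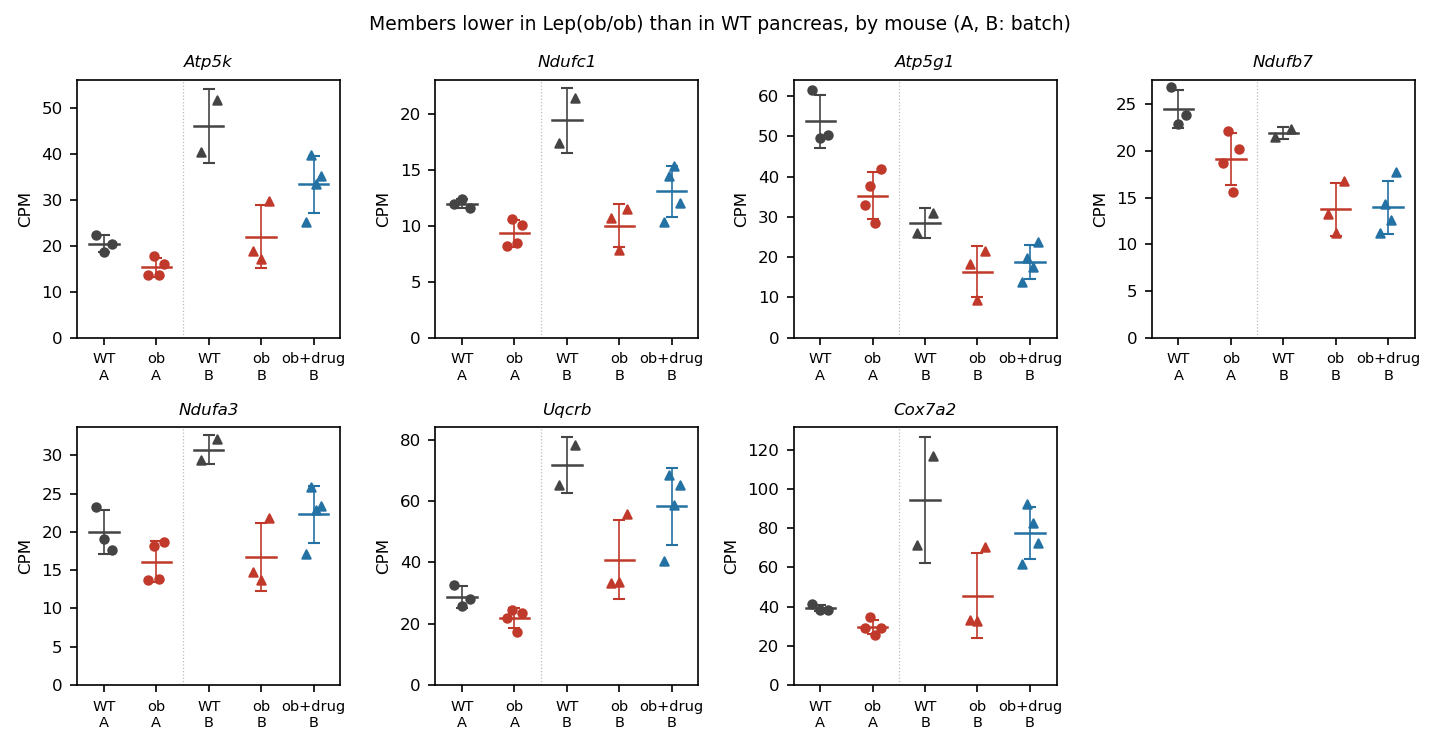
CPM (y axis, from 0) of the 7 members called lower in Lep(ob/ob) against WT, in every mouse, by condition and batch, circles for batch A and triangles for batch B, bars giving mean ± SD. For 6 of the 7 every Lep(ob/ob) mouse lies below every WT mouse of its batch, the exception being Ndufa3 in batch A.

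Within batch A alone the median log2 fold change of the members was −0.17 and 2 members were called lower, Atp5g1 and Sdhb, where 1.99% of all genes were. Within batch B alone the median was −0.49 and 0 members were called (edgeR, 26 of the 90 tested there with an unadjusted p under 0.05, against 16.8% of all genes), but only 0.0214% of all genes were called lower in that fit of few mice. A genotype by batch interaction, fitted on the 12 mice that drank control water, called 0 members and 0% of all genes with edgeR. An unadjusted p under 0.05 was found for 10 members, a share near the 11.5% of all genes, and the lowest adjusted p was 0.387. DESeq2 called 54 genes, 0 of them members (11 members with an unadjusted p under 0.05). The median was larger in batch B, but a difference between batches was not called for any member.

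Transcript length moved with these values. Members are short, with a median principal transcript of 971 nt against 3069 nt for all genes with a length. The 18 members under 600 nt had a median log2 fold change of −0.45, the 28 of 600 to 1000 nt −0.35 and the 43 over 1000 nt −0.23, where all tested genes of the same lengths had −0.34, −0.23 and 0. Members were therefore lower than all tested genes of their length by a smaller margin than against all genes. The genes of each length include the members themselves, which are 18 of the 122 under 600 nt. Under 600 nt 3 of 18 members were called lower (5.74% of all genes of that length), from 600 to 1000 nt 2 of 28 (7.03%), and over 1000 nt 2 of 43 (2.74%). Spearman's rho between length and log2 fold change was 0.30 over the 89 members and 0.13 over 13161 genes, given as a description, since the genes share libraries.

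By mouse, the mean log2 CPM of the 18 short members minus that of the 43 long ones was −0.09 to 0.01 in all 7 mice of batch A. In batch B it was 0.36 and 0.61 in WT mice, −0.07 and 0.04 in Lep(ob/ob) mice 461 and 463, 0.35 in Lep(ob/ob) mouse 464, and 0.34 to 0.51 in antagonist-treated mice. The 104 short genes outside the pathway, against 12413 long ones, gave 0.74 and 0.84 in the WT mice of batch B, 0.29 and 0.13 in mice 461 and 463, 0.8 in mouse 464, and 0.47, 0.84, 0.7 and 0.75 in treated mice 69, 72, 74 and 76. Mice 461 and 463 were thus the lowest of batch B also in short transcripts outside the pathway, followed by mouse 69. The part of this in the lower levels of the members was not tested. Without these 2 mice, an alternative chosen after the data had been seen, the median of the members was −0.19 and 1 member, Atp5g1, was called lower (adjusted p = 0.0336), where 2.09% of all genes were.

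**Figure D4:**
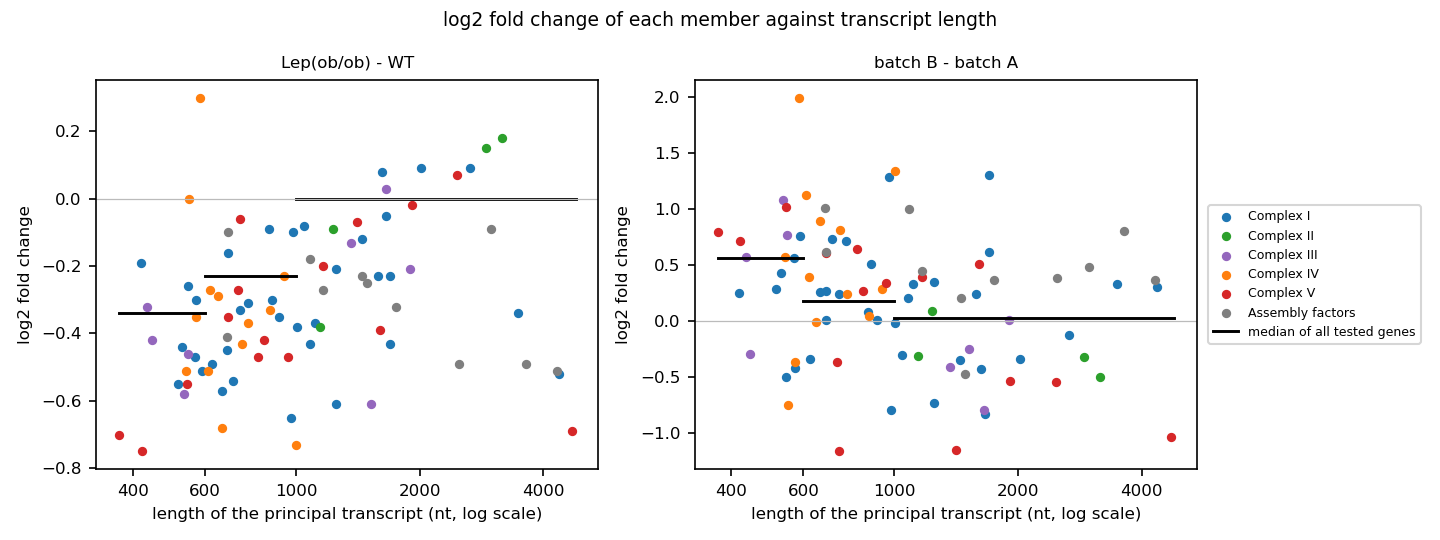
Log2 fold change (y axis) of 86 members, the subunits and assembly factors, against the length of the principal transcript (x axis, log scale), for genotype on the left and for batch on the right, coloured by complex, with black lines for the median of all tested genes under 600 nt, from 600 to 1000 nt and over 1000 nt. On the left the lines lie at −0.34, −0.23 and 0, and the members under 600 nt have a median of −0.45.

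More members were called between batches than between genotypes. Between batches 31 members were higher and 18 lower in B (35.5% of all genes called, 17.9% as higher and 17.7% as lower). Cox7b (1.34), Ndufs4 (1.3), Ndufb4 (1.28), Ndufa4 (1.12) and Uqcrb (1.08) were among those higher in batch B on the log2 scale, and Atp5g2 (−1.16), Atp5d (−1.15), Atp5g1 (−1.03), Ndufv1 (−0.83) and Uqcrc1 (−0.79) among those lower. The batch is as the labels give it, and what differed between batches is not given in the sources used here.

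Markers of other cell types moved with genotype and with single mice. Of 13 islet markers 10 were higher in Lep(ob/ob) pancreas and 0 lower, with summed levels of 1360 to 1990 CPM for WT and 2740 to 13900 CPM for untreated Lep(ob/ob) mice, and of 12 acinar markers 2 were lower. Adipocyte markers had a median sum of 363 CPM in WT mice (highest 548), 754 CPM in untreated Lep(ob/ob) mice (highest 4640) and 830 CPM in treated mice (highest 3250), with 1 of 11 higher and 1 lower. None of the markers in these 3 lists was at 0 in any mouse. The mice with the most adipocyte signal were 463 (4640 CPM), 461 (1500) and 417 (1370) among the untreated and 69 (3250) among the treated, and these 4 also had the lowest mean member levels of their condition and batch. Macrophage markers summed highest in the same 4 mice, at 767 CPM in 463, 343 in 461 and 259 in 417, with mouse 69 between the last named, next to 68 to 205 CPM in the others. Fibroblast and stellate markers were at 1400, 1030 and 1070 CPM in 463, 461 and 417, above all other mice, and at 594 CPM in 69, above the other treated mice. None of the 7 markers of either list was called between genotypes (edgeR, 0 with an unadjusted p under 0.05). In treated against untreated mice 0 were called in either list, but all had negative log2 fold changes (medians −1.19 and −0.96), with an unadjusted p under 0.05 for 6 of 7 in each. Of 6 skeletal and cardiac muscle markers 1 passed the filter, Acta1, with 0 counts in 4 mice and at most 91 in any, and it was called higher in untreated Lep(ob/ob) mice than in WT (edgeR, adjusted p = 0.0092). The 6 summed to 3.93, 3.28, 2.57 and 2.56 CPM in mice 463, 69, 417 and 461, and to 0 to 1.67 CPM in the others. Without the 4 mice the median of the members was −0.14 and 3 were lower, a share below the 4.8% of all genes. The part of cell composition in the result was not tested.

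**Figure D5:**
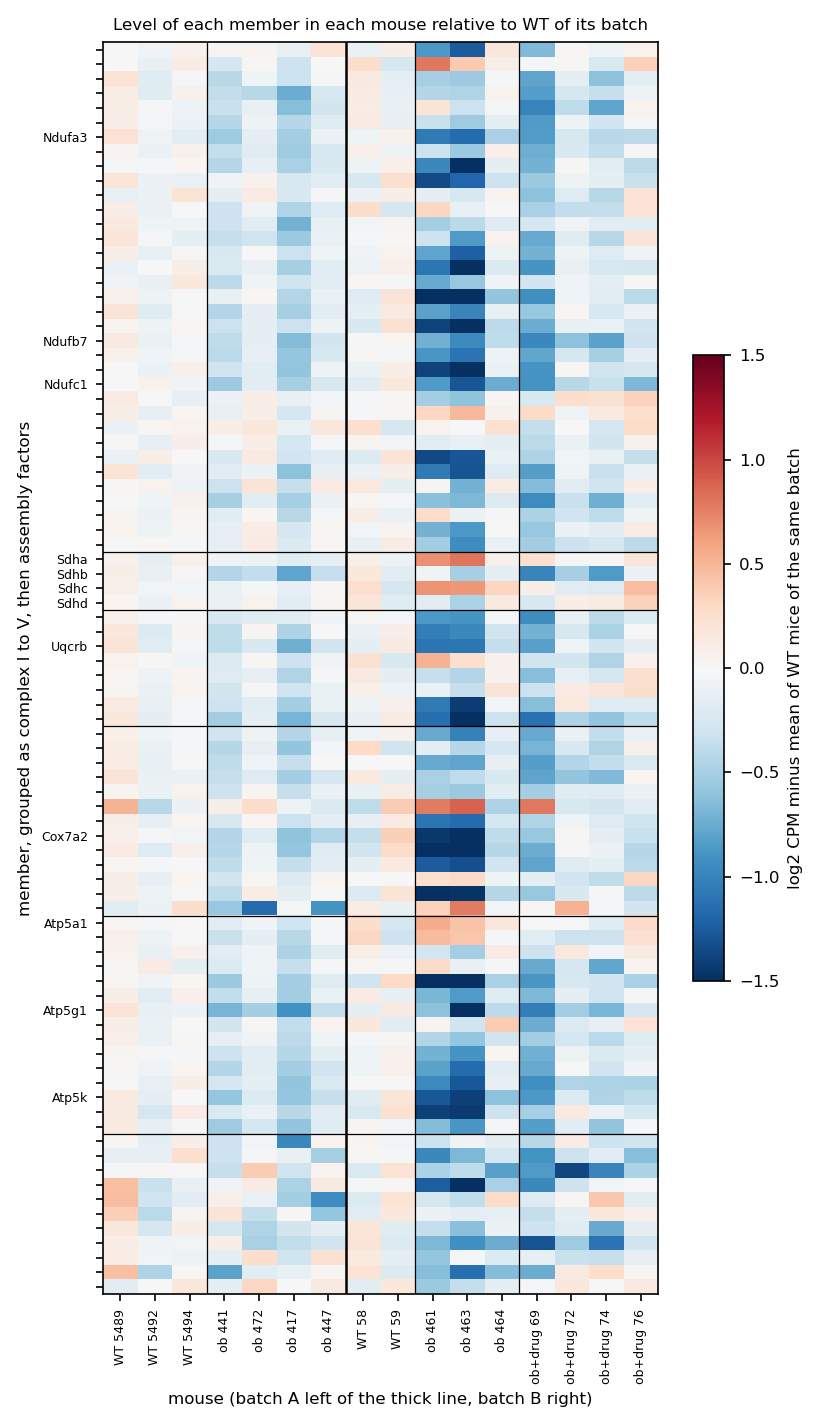
Log2 CPM of 86 members (rows, in the order of complexes I to V and assembly factors) in the 16 mice (columns), minus the mean of the WT mice of the same batch, blue for lower and red for higher, with the scale ending at 1.5 in either direction. Mice 461 and 463 carry the darkest blue, and Sdha, Sdhc and Atp5a1 are red in mice 461 and 463, in contrast to the called members, and gene names are drawn for the called members, complex II and Atp5a1.

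The second comparison asked what CCK receptor antagonists change in Lep(ob/ob) pancreas. None of the 89 members passed the test in antagonist-treated against untreated Lep(ob/ob) mice (0 higher and 0 lower, edgeR), where 0.0659% of all genes did, 0.0293% as higher and 0.0366% as lower. DESeq2 also called 0 members, where it called 0.945% of all genes. An unadjusted p under 0.05 was found for 10 members, a share below the 14.1% of all genes, and the lowest adjusted p was 0.241, for Atp5sl (log2 fold change 0.80 ± 0.24). The median log2 fold change was 0.15 against −0.01 for all genes, and 32 members were below 0, against 51.2% of all genes.

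Within batch B, which holds all treated mice, the mean log2 CPM of the members was 4.30 and 4.73 in mice on proglumide and 4.60 and 4.79 in mice on lorglumide, next to 4.33, 4.16 and 4.73 in untreated Lep(ob/ob) mice. Treated mice lay within or above the range of the untreated ones, and mouse 464 lay within the range of the treated. The doses of the antagonists differed, and they were not compared with each other. In 1 member, the assembly factor Sdhaf4, every treated mouse was above every untreated mouse of batch B (4.8 to 5.49 against 3.31, 3.81 and 4.47 CPM), against 4.92% of all genes, and in 0 members every one was below (3.57%).

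The largest positive values of each complex belonged to Ndufb4 (0.63 ± 0.30, adjusted p = 0.359), Sdhd (0.22 ± 0.15, 0.493), Uqcrh (0.42 ± 0.25, 0.449), Cox7b (0.71 ± 0.33, 0.349) and Atp5l (0.61 ± 0.25, 0.314), and the largest negative values to Ndufa13 (−0.37 ± 0.20, 0.394), Sdhc (−0.36 ± 0.17, 0.359), Uqcrc1 (−0.42 ± 0.16, 0.283), Cox6b2 (−0.40 ± 0.47, 0.69) and Atp5d (−0.40 ± 0.17, 0.327), all edgeR log2 fold changes ± SE followed by adjusted p. Cox7b, for example, was at 111 and 184 CPM in mice on proglumide and 175 and 139 CPM in mice on lorglumide, and at 53, 43.5 and 138 CPM in untreated mice 461, 463 and 464. The treated mice were all above 461 and 463, while mouse 464 was above mouse 69. Two-sided exact permutation tests within batch B on 40 named members, 4 mice against 3, cannot go below p = 0.0571, and the lowest p was 0.114 (0.304 after Benjamini-Hochberg adjustment). Without mice 461 and 463 the median of the members turned to −0.10.

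For the 7 members that were lower in Lep(ob/ob) mice, treated mice had log2 fold changes against untreated ones of 0.44 ± 0.20 (Atp5k), 0.24 ± 0.18 (Ndufc1), 0.15 ± 0.22 (Atp5g1), −0.06 ± 0.17 (Ndufb7), 0.27 ± 0.19 (Ndufa3), 0.41 ± 0.20 (Uqcrb) and 0.61 ± 0.25 (Cox7a2), and no adjusted p was under 0.312. Atp5k was at 25.1, 39.7, 33.4 and 35.2 CPM in mice 69, 72, 74 and 76, below both WT mice of batch B and overlapping the untreated Lep(ob/ob) mice. Both comparisons use the same untreated mice, so a value that is low in those mice enters them with opposite signs.

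Against WT, antagonist-treated Lep(ob/ob) mice had 0 members higher and 0 lower (edgeR, 12 with an unadjusted p under 0.05, a share below the 16.6% of all genes), where 5.54% of all genes were called, 4.19% as higher and 1.35% as lower, and DESeq2 called 2 lower, a share below its 2.7% of all genes. The log2 fold change was below 0 in 77 of 89 members (52.8% of all genes), with a median of −0.17 against −0.02. The lowest adjusted p belonged to Sdhb (log2 fold change −0.66 ± 0.20, adjusted p = 0.0596). Sdhb was at 47.9 and 38.8 CPM in the WT mice of batch B, 41.3, 30.5 and 38.8 CPM in untreated and 21.7, 30.4, 23.9 and 40.4 CPM in treated Lep(ob/ob) mice, so that 1 treated mouse, 76, lay among the WT mice. The largest negative values of the other complexes were those of Ndufa13 (−0.59 ± 0.21), Uqcrq (−0.45 ± 0.25), Cox6a1 (−0.46 ± 0.17) and Atp5g1 (−0.54 ± 0.23), and the highest those of Ndufc2 (0.27 ± 0.17), Sdhd (0.13 ± 0.16), Uqcrfs1 (0.04 ± 0.16), Ndufa4 (0 ± 0.27) and Atp5l (0.06 ± 0.26), none of which passed.

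Isoforms that mark other tissues were at the edge of detection. Cox4i1, the common form, was at 85.6 to 181 CPM over all mice, while its hypoxia-related counterpart Cox4i2 had 1 to 13 counts a mouse. The heart and skeletal muscle forms Cox6a2, Cox7a1 and Cox8b had 1 to 15, 0 to 9 and 0 to 42 counts, and their common forms Cox6a1, Cox7a2 and Cox8a 24.1 to 60.4, 25.7 to 117 and 14.2 to 36.9 CPM. Cox6b1 was at 40 to 79 CPM and Ndufa4, which sits in complex IV despite its name, at 26.4 to 126 CPM, while Ndufa4l2 was at 0.481 to 1.67 CPM.

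Of the 7 members below the filter, Cox4i2, Cox6a2, Cox7a1, Cox8b, Cox7b2 (0 to 9 counts) and Cox8c (0 to 2 counts) had few counts, and Ndufs5, an accessory subunit of complex I, was listed at 0 in all 16 mice. Of 50-base stretches in Ndufs5 transcripts 21.7% occur in transcripts of 1 other gene, BC002163, and whether this bears on its 0 was not tested. Cox8b had 1, 0, 1, 0 and 2 counts in WT mice, 1, 5, 13 and 4 in untreated Lep(ob/ob) mice of batch A, 3, 42 and 7 in those of batch B, and 10, 7, 9 and 3 in treated mice. Without the filter it was called higher in the obese mice than in WT (edgeR), on these few counts. Cox8b and Cox7a1 also mark brown fat, and in a list of 7 brown fat markers Ucp1 was at 0 in 12 of 16 mice, Elovl3 in 9, Cidea and Cox7a1 in 5, Cox8b in 2 and Dio2 in 1, with at most 3, 5, 17, 9, 42 and 40 counts, while Ppara, which other tissues also express, had 76 to 233. Of the 2 of the 7 that passed the filter, Dio2 and Ppara, Ppara was called lower in untreated Lep(ob/ob) mice than in WT (edgeR, adjusted p = 0.00347). The part of brown fat in the counts of Cox8b was not tested. The 7 summed to 11.1 to 15.1 CPM in WT, 7.82 to 10.1 CPM in untreated and 5.66 to 9.6 CPM in treated Lep(ob/ob) mice. In every mouse Ppara had more counts than any other of the 7, so the sum leans on Ppara.

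Lists of neighbouring pathways were read against the same shares of all genes, 3.12% called lower, 5.82% called higher and 23.7% with an unadjusted p under 0.05. Of 8 tested genes for electron carriers and subunits with other symbols, 1 was lower in Lep(ob/ob) pancreas, Cycs, which encodes cytochrome c (log2 fold change −0.47 ± 0.12, adjusted p = 0.0187), with a median of −0.21. Of 20 complex IV assembly genes 2 were lower, the copper chaperone Cox17 (−0.68 ± 0.20, adjusted p = 0.0401) and Coa3 (−0.76 ± 0.19, adjusted p = 0.0206), with a median of −0.32, close to that of the members. Of 16 genes of the tricarboxylic acid cycle 0 were called (edgeR, 2 with an unadjusted p under 0.05), with a median of 0.13 and 12 above 0, and of 18 glycolysis genes 0 were called (6 with an unadjusted p under 0.05), with a median of 0.33 and 14 above 0.

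Among 16 regulators of mitochondrial genes, 1 was called, Esrrg, an estrogen-related receptor that binds the ESRR motif, which was higher in Lep(ob/ob) pancreas (log2 fold change 1.62 ± 0.25, adjusted p = 0.000608). The coactivator Ppargc1a had −0.61 (adjusted p = 0.121), and Nrf1 (−0.05), Gabpa (−0.16), Yy1 (−0.11) and the mitochondrial transcription factor Tfam (−0.08) had small values. In antagonist-treated against untreated Lep(ob/ob) mice 0 genes of these 5 lists were called (edgeR, 1 or 2 in each list with an unadjusted p under 0.05). Against WT, Esrrg was again higher in treated mice (1.29 ± 0.31, adjusted p = 0.0177).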

How the data were processed

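Pancreas RNA-seq of 16 mice was analysed, 1 polyA library per mouse. Reads had been trimmed with Trim Galore 0.6.7 and cutadapt 3.5 and aligned to mm10 with STAR 2.7.9, per the submitters' processing notes. The read counter, the strand setting and the annotation are not given in the sources used here. The authors deposited raw counts per gene symbol and a normalized signal, which was checked to be those counts divided by 1 size factor per mouse (0.617 to 1.44). The signal was not tested. Date-like symbols that occur more than once (2 of them) were kept as separate rows.

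Counts were tested with edgeR 4.0.16 (R 4.3.3, filterByExpr with the design matrix, TMM, robust quasi-likelihood fit of condition and batch over all 16 mice, Benjamini-Hochberg adjustment over 13660 genes, call at an adjusted p under 0.05). DESeq2 1.42.0, other scalings, filters, sample sets and each mouse left out were alternatives. Errors of log2 fold changes were taken from the F statistic. Exact permutation tests used scipy, with mice and not genes exchanged. The script was tested on simulated data that held no batch effect, so the adjustment for batch was not checked in this way. No 2 libraries were duplicates (chi-square per gene 8.09 to 409 within and 30.2 to 608 between conditions). The labels do not state that mice come from separate litters or cages, so p-values measure the spread between these mice. Depth was 9.87 to 34.5 M counts per mouse. 

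The members, the gene lists and the motifs were chosen with earlier results of these data known. Named members were those called, those with the largest rise, largest fall and highest level of each complex, the core subunits of complexes I and II, and isoform pairs. Some genes that this rule names are not reported here. Ndufa4 and Ndufa4l2 were counted with complex IV. Members outside that rule that are named for a single count (Sdhaf4, Atp5sl, Sdhaf3, Ndufs4, and the subunit c genes) were chosen after their values were seen. Gene positions and transcript lengths are from GENCODE vM21 (GRCm38), promoters from RefSeq (GRCm38.p6).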

Additional observations from a re-analysis of the deposited data

Results flagged for a closer look

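Among 147 sets of 4 to 7 mice examined (complex means and named members in each condition), 14 held a mouse whose distance to its neighbour was large for the range of its condition. The limit used gives about 1 in 20 by chance for independent sets from 1 population. Sets of WT and of untreated Lep(ob/ob) mice pool both batches, and sets share mice, so the 14 cannot be read against that rate. In untreated Lep(ob/ob) mice, mouse 464 was highest for the mean of complex IV (log2 CPM 4.80), Atp5k (4.90), Atp5l (5.80), Cox7a2 (6.14), Cox7b (7.11), Ndufa4 (6.35), Ndufb4 (4.25), Ndufb9 (7.05), Ndufv2 (5.85) and Uqcrh (7.27), and lowest for Sdha (5.60) and Sdhc (4.49). These levels are not adjusted for batch, and mouse 464 is from batch B. In antagonist-treated mice, mouse 76 was highest for the mean of complex II (5.25) and mouse 69 for Cox6b2 (−0.19). Cox8b, which was below the count filter of the reported fit, reached 42 counts in untreated Lep(ob/ob) mouse 463, against at most 2 in WT mice.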

How the results depend on the processing

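The 7 reported calls had adjusted p between 0.0135 and 0.0418 (edgeR). The number of members lower in Lep(ob/ob) than in WT mice, 7 as reported, moved with most choices. With the share of all genes called lower in the same fit, it was 1 without a batch covariate (1.41%), 0 with library totals in place of TMM (0.739%), 2 in batch A alone (1.99%), 0 in batch B alone (0.0214%), 3 without mice 417, 461, 463 and 69 (4.8%), and 1 without mice 461 and 463 (2.09%). It was 6 or 7 with other filters or scalings, 8 without mice 463 and 69 (3.49%), 9 with only the groups compared (3.29%) and 10 with DESeq2 (4.61%). Leaving out 1 mouse gave 0 (without WT mouse 59, 1.68%) to 16 (without Lep(ob/ob) mouse 464, 3.6%), with 2 without WT mouse 5489 or Lep(ob/ob) mouse 417, 3 without WT mouse 58, Lep(ob/ob) mice 441, 461 or 463 or treated mouse 74, and 4 without WT mouse 5494 (1.66% to 2.53% of all genes in these fits). No member was higher in the reported fit. With no filter on low counts 1 was, Cox8b, and it was also the 1 member called higher in those fits with a mouse left out (0 to 1 per fit) where it passed the filter. The median of the members was −0.14 without mice 417, 461, 463 and 69 and −0.37 to −0.26 with 1 mouse left out.

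For treated against untreated mice, calls stayed at 0 with each mouse left out. They were 1 higher without a batch covariate (2.25% of all genes), and 16 higher and 9 lower with only these 2 groups in the fit and batch left out of it (7.86% and 7.23% of all genes). With the same mice and batch in the fit, an alternative chosen after the data had been seen, they were 0 and 0 (edgeR, 20 of 90 members with an unadjusted p under 0.05, against 18.3% of all genes). The median, 0.15 as reported, was 0.46 with library totals (0.31 for all genes), −0.02 without mice 417, 461, 463 and 69, −0.10 without mice 461 and 463, and 0.01 (without mouse 463) to 0.24 (without mouse 464) with 1 mouse left out. With proglumide mice alone as the treated group, 0 genes were called and 44 of 91 members were below 0. With lorglumide mice alone, 0 genes were called and 21 of 92 members were below 0. Against WT, 84 of 91 and 63 of 92 were below 0 in these fits, which hold 2 treated mice each. For treated mice against WT, 9 members were lower without a batch covariate (5.33% of all genes), 1 when scaling left out the 50 genes with the most counts (1.5%), 8 with only the groups compared and no batch term (5.47%), 0 with these groups and batch (0.691%), 4 without mice 417, 461, 463 and 69 (3.26%), 3 without mice 461 and 463 (1.82%), 2 with DESeq2 (2.7%), and 0 to 5 (without treated mouse 76, 1.63%) with 1 mouse left out, among them 3 without Lep(ob/ob) mouse 463 (2.14%) and 1 without WT mouse 59 (1.56%). With library totals 1 was higher, Sdhd, where 7.12% of all genes were, and the median turned from −0.17 to 0.28 (0.47 for all genes), and with 1 mouse left out it was −0.23 to −0.07. The cause of these shifts was not tested. No paired analysis was possible because mouse numbers differ between all groups.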
